A study of Mus musculus with 30 samples.

Results

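The 29 genes described here are members and outputs of the circadian clock, out of 42880 genes in the liver RNA counts. They were chosen by name, as genes known for the core loop, its kinases and its rhythmic outputs, and each was matched to a gene in the files. Earlier results of these data were known when they were chosen. Values of the members beside those of all genes therefore describe the list and are no independent test of it. Liver RNA was sequenced from 30 mice at 4 months of age, and 29 of them, 13 males and 16 females, enter the values below. They were 6 CC019/TauUnc inbreds, 9 CC037/TauUnc inbreds, 6 F1s of a CC019 mother and a CC037 father (CC019 x CC037) and 8 F1s of the opposite cross (CC037 x CC019). Both strains are inbred lines of the Collaborative Cross, so the mice of a group share a genotype but not a sex. The female CC019 x CC037 replicate 5 was left out, since it was taken to be the female set aside in the study for its single X. The mice were kept in a light and dark cycle with free access to food, and the hour at which each liver was taken is not given in the sources used here. The libraries of inbreds and of F1s used here are from separate RNA batches, so from these files the batch and the type of cross cannot be told apart. Gene counts summed to 27672008 to 63258035 in a mouse (median 37888559).

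The clock of a liver cell is a loop of transcription. ARNTL pairs with CLOCK or NPAS2 on E-box sequences and drives the Per and Cry genes, whose proteins return to repress that pair. NR1D1 and NR1D2 repress Arntl from other elements, through which RORA activates it. The output factors DBP, TEF and HLF activate genes through D-box sequences that NFIL3 represses. In mice on a light cycle the transcripts of this loop rise and fall over the day in a fixed order, with Dbp and Nr1d1 far from Arntl and Npas2, so each liver holds the state of the loop at the hour it was frozen.

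Every one of the 29 members passed the expression filter, at least 0.5 CPM (counts scaled to equal library totals) in the majority of the mice, as did 13185 genes in all. In TPM, which allow for transcript length and so allow a comparison between genes, Por had the highest mean of the members at 174 ± 79.2 (SD, n = 29). Por encodes the reductase that hands electrons to cytochrome P450 enzymes. Nr1d1 followed at 82.7 ± 23.8 TPM, Dbp at 57.9 ± 53.5 TPM and Bhlhe40, a repressor that binds E-boxes, at 56.2 ± 19.0 TPM (SD, n = 29), so the spread of Dbp between mice was nearly as wide as its mean. The lowest means were 1.16 ± 0.378 TPM for Timeless, a gene of the replication fork, 1.2 ± 1.28 TPM for Bhlhe41 and 1.42 ± 0.803 TPM for Lonrf3. Alb was the most abundant of 9 hepatocyte markers in the files, at a mean of 81630 CPM, so the livers carried the markers of their label.

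Dbp (ENSMUSG00000059824, chromosome 7 of GRCm38 from 45705088 to 45710203) differed more within groups than any other member. In CC019 inbreds, the 3 females had 183, 192 and 199 CPM and the 3 males 76.5, 108 and 20.4 CPM. In CC037 inbreds, females 1, 2 and 3, of 1 series of mouse numbers, had 15.2, 46.1 and 25.5 CPM, males 1, 2 and 3, of another series, 94.6, 83.5 and 109 CPM and female 4, male 4 and female 5, of the last series, 128, 120 and 114 CPM. In CC019 x CC037 F1s, the males had 106, 112 and 162 CPM and the females 10.7, 10.8 and 11.4 CPM. The number series within each inbred strain and the sexes of these F1s did not overlap, so Dbp was high in some sets of mice and low in others of the same genotype. In CC037 x CC019 F1s the values ran from 2.14 to 21.6 CPM with a median of 11.5, below all values of the CC019 x CC037 males and overlapping those of the females. The female that was left out had 25.8 CPM.

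On the log2 scale, 53.4% of the variance of Dbp lay between the 4 groups, and 87.3%, those 53.4% included, between sets of 1 number series and sex. The CC019 x CC037 F1s are of 1 number series, which holds both the low females and the high males. Over the 3 series of CC037, Dbp differed with an exact permutation p of 0.00357, which became 0.0536 after Benjamini-Hochberg adjustment over 15 such tests and did not pass. For 3 against 3 mice, as between the series of CC019 or the sexes of CC019 x CC037, a two-sided exact test cannot go below 0.1, which is the value that both gave for Dbp and for Arntl. What the number series stands for, a litter, a day or an hour of collection, is not given in the sources used here. In the CC019 series and in the CC019 x CC037 F1s, series or set and sex cannot be told apart.

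Arntl (ENSMUSG00000055116, chromosome 7 from 113207465 to 113314126), the factor at the head of the loop, ran opposite to Dbp. In CC019 inbreds it lay between 2.71 and 10.4 CPM with a median of 5.36, and in CC037 inbreds between 8.30 and 24.8 CPM with a median of 11.2. It was at 5.82, 8.33 and 12.0 CPM in CC019 x CC037 males and at 23.5, 26.0 and 27.9 CPM in the females. The CC037 x CC019 F1s, the group with the lowest mean of Dbp, had the highest mean of Arntl, and all 8 lay between 23.9 and 32.2 CPM. Npas2, which can take the place of CLOCK beside ARNTL, spanned 0.411 to 1.02 CPM in CC019, 1.29 to 7.84 CPM in CC037, 0.651 to 8.42 CPM in CC019 x CC037 and 6.28 to 11.5 CPM in CC037 x CC019 F1s. Its values in CC019 lay below all those of CC037 and of CC037 x CC019 F1s. Clock itself moved little, from a lowest value of 34.2 CPM to a highest of 68.5 CPM, both in CC019 x CC037 F1s.

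The repressors of the loop did not share a common pattern. Per3 followed Dbp, with 31.1 to 35.7 CPM in CC019 females, 2.64 to 13.5 CPM in CC019 males, and 3.35 to 4.33 CPM in CC019 x CC037 females against 13.9 to 26.3 CPM in the males. Per1 was highest in a single F1, CC019 x CC037 male 2, at 48.5 CPM, and lay between 1.75 and 4.26 CPM in all 8 CC037 x CC019 F1s. Per2 departed from Dbp in the CC037 x CC019 F1s, whose 3 males had 21, 23.8 and 27.3 CPM while their Dbp was at 14.4 CPM or less. The females of that cross ran from 8.47 to 21.55 CPM of Per2, the highest at a Dbp of 15.25 CPM. The median of Per2 was 18.6 CPM in CC019, 16.8 in CC037, 14.3 in CC019 x CC037 and 19.2 in CC037 x CC019 F1s, and only 1.02% of its variance lay between the groups. Cry1 was highest in CC037 x CC019 F1s, with a median of 18.2 CPM and values from 11.2 to 27.2, and lowest in CC019, with a median of 6.04 CPM and values from 3.51 to 10.0. Ciart, a repressor of the ARNTL and CLOCK pair, lay between 2.73 and 15.6 CPM in CC019 and between 0.131 and 0.929 CPM in CC037 x CC019 F1s, with no overlap.

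Nr1d1 and Nr1d2, the repressors of Arntl, varied less. Nr1d1 was between 165 and 206 CPM in all 9 CC037 inbreds, from 87.3 to 205 CPM in CC019, from 96.4 to 212 CPM in CC019 x CC037 and from 64.1 to 166 CPM in CC037 x CC019 F1s. Nr1d2 had medians of 84.0 CPM in CC019, 75.1 in CC037, 62.9 in CC019 x CC037 and 44.7 in CC037 x CC019 F1s. CC037 females 1, 2 and 3 had low Dbp with Nr1d1 at 165, 184 and 176 CPM, against 172 to 206 CPM in the other 6 CC037 inbreds. Their Ciart was at 0.97 CPM or less, under that of the other 6 CC037 inbreds.

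Among the other factors of the D-box, Tef followed Dbp and Nfil3 ran opposite. Tef had medians of 137 CPM in CC019, 105 in CC037, 76.3 in CC019 x CC037 and 47.0 in CC037 x CC019 F1s, with values from 30.8 to 158 CPM over all mice. Hlf stayed between 29.5 and 70.7 CPM, with medians from 45.7 to 59.2 CPM in the 4 groups, which overlap. Nfil3 was opposite, with 12.6 to 14.5 CPM in CC019 females, where Dbp was highest, and 29 to 50.1 CPM in CC037 x CC019 F1s. CC019 male 3 had the highest Nfil3 of the 29 mice, 74.2 CPM, with 31.1 CPM of Per1 and 9.85 CPM of Ciart at a Dbp of 20.4 CPM.

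**Figure D1:**
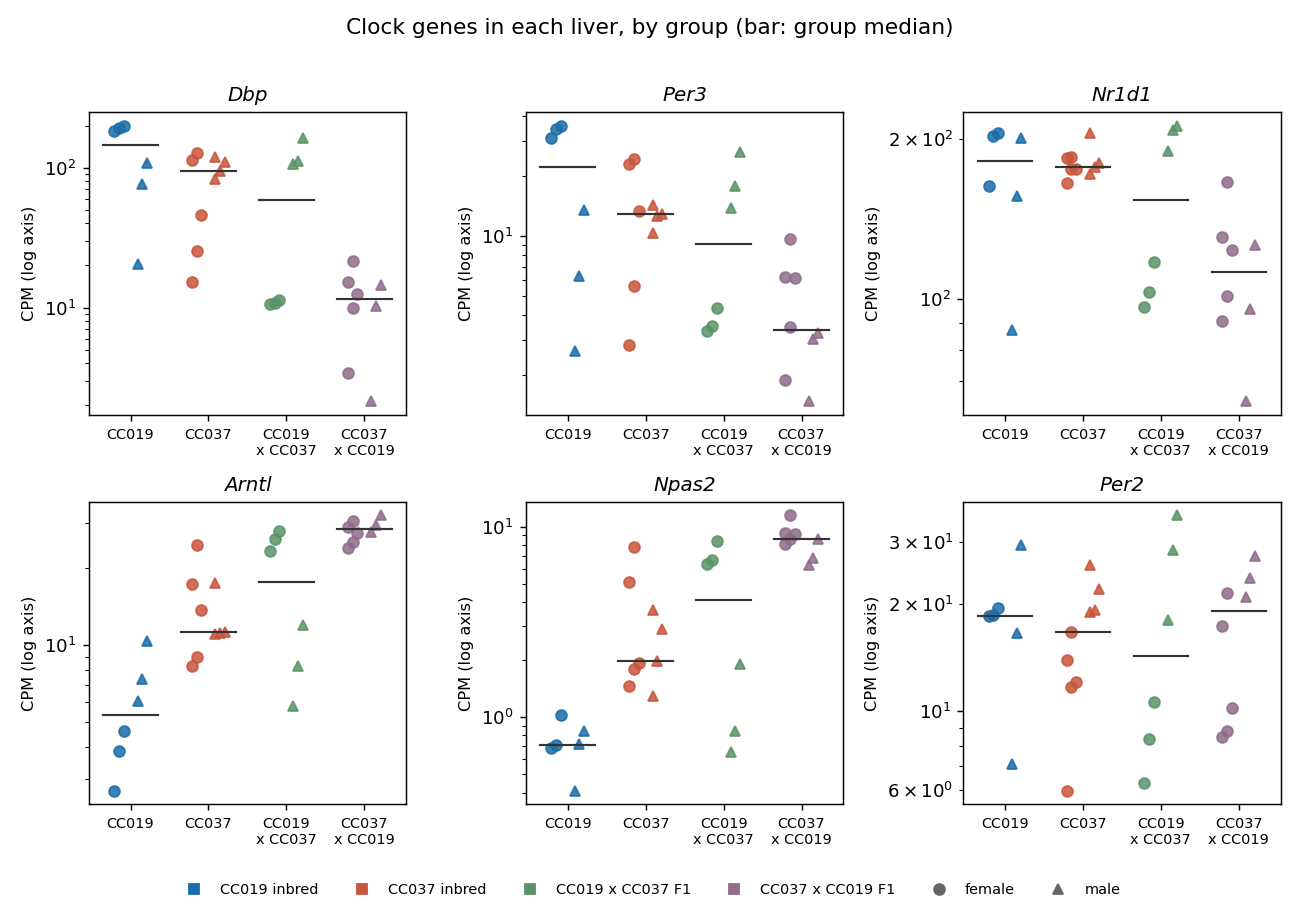
CPM on a log axis in each of 29 livers for 6 members, by group on the horizontal axis, with circles for females, triangles for males and a bar at the group median. Dbp ran from 2.14 to 199 CPM, and within CC019 x CC037 F1s the 3 females (10.7 to 11.4 CPM) lie far below the 3 males (106 to 162 CPM), while Arntl and Npas2 show the opposite order.

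The members varied more within groups than most genes did. The median SD within groups was 0.51 on the log2 scale for the members and 0.22 for all 13185 genes, and 14 of the 29 members lay above the 90th percentile of all genes. Dbp was first among them with an SD of 1.32 (99.0% of genes lower), followed by Per3 at 1.08 and Bhlhe41 at 0.90. At the other end, Csnk1d, a kinase that phosphorylates PER proteins, had an SD of 0.09, lower than all but 2.06% of genes, and Rora one of 0.15. Csnk1e, the other kinase, had an SD of 0.31 and the activators Arntl and Npas2 of 0.57 and 0.74.

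Over all mice, with the differences between groups included, a single axis held most of the members' variance. Of that variance 52.1% lay between the 4 groups. Genes were centred but not scaled, so members with a wide spread, such as Dbp, weighed most. The first principal component of the 29 members held 70.5% of their variance over 29 mice and the second 8.94%, against 32.9% on the first component of all genes. Dbp had the highest weight on the first (0.46), with Bhlhe41 (0.33), Usp2 (0.30), Per3 and Per1 on its side and Npas2 (-0.30), Arntl (-0.24), Lonrf3 and Cry1 opposite. CC037 x CC019 F1s lay at its low end, from -6.40 to -2.93, and CC019 inbreds at its high end, from 1.72 to 5.53. CC037 inbreds, which reached 3, overlapped CC019, and CC019 x CC037 F1s, from -4.11 to 5.31, overlapped both ends. Within groups, after centring on the group means, the first component held 54.3% and the second 17.0%, and the share of the first over all genes was 45.9%. Shares over 29 genes and over all genes are not directly comparable. Pairs of members had a median absolute correlation of 0.36 within groups. On the second component within groups, Noct (0.42), Ciart (0.30) and Cry1 (0.23) stood opposite Por (-0.40) and Per3 (-0.35). No hour or phase was computed for a liver, because the files hold no times against which to set one.

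To ask which genes move with Dbp from mouse to mouse, the log2 level of each gene was fitted on that of Dbp with the 4 groups as covariates. Adjusted p values of such fits come from edgeR (quasi-likelihood, Benjamini-Hochberg over all genes tested), a gene is called at 0.05 or less, and ± after a log2 value gives its standard error. Of the 28 other members 14 were called, 9 rising with Dbp and 5 falling, which is 50% of them against 3.06% of all 13184 genes. Rising with Dbp were Tef, by 0.35 on the log2 scale per log2 unit of Dbp (SE 0.03, adjusted p = 1.17e-08), Per3 by 0.79 ± 0.07 (adjusted p = 5.81e-08), Nr1d2 by 0.22, Nr1d1 by 0.23, Bhlhe41 by 0.57, Per2 by 0.33, Wee1, a kinase that holds back mitosis, by 0.31, Bhlhe40 by 0.24 and Cry2 by 0.15. Falling were Npas2, with a slope of -0.50 ± 0.08 (adjusted p = 0.00143), Arntl, with -0.37 ± 0.05 (adjusted p = 3.57e-05), Nfil3, with -0.33, Lonrf3, with -0.24, and Clock, with -0.10. Arntl, Npas2 and Clock thus fell where Tef, Nr1d1 and Nr1d2 rose. Hlf (0.10, adjusted p = 0.0969), Ciart (0.49, adjusted p = 0.0601), Per1 (0.30, adjusted p = 0.185) and Cry1 (-0.15, adjusted p = 0.196) were not called.

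Fewer members were called within sets of mice. With number series and sex as covariate in place of the groups, a setting chosen after seeing the data, 3 members were called, Tef at 0.27 (adjusted p = 0.00300), Nr1d2 at 0.23 (adjusted p = 0.00312) and Per3 at 0.79 (adjusted p = 0.000856), and 4 genes of all tested. The slopes of the other called members kept their sign there. Nr1d1 at 0.27 (adjusted p = 0.0779), Nfil3 at -0.34 (adjusted p = 0.0779) and Wee1 at 0.34 (adjusted p = 0.429) kept their size too, while Arntl at -0.18 (adjusted p = 0.638), Npas2 at -0.30 (adjusted p = 0.56) and Lonrf3 at -0.04 (adjusted p = 0.979) were nearer to 0. With Nr1d1 in place of Dbp as the reference, 4 members were called. In the 14 F1s alone 5 were called and in the 15 inbreds alone 7. Clock and Per2 were at the margin, since the call of Clock was lost 16 times and that of Per2 8 times among 29 fits without 1 mouse each.

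The slope on Dbp differed between F1s and inbreds for 1 member (3.57%), Nfil3, which counteracts DBP at D-boxes, by 0.51 ± 0.09 (adjusted p = 0.00872), against 0.599% of all genes. That share is 79 genes, which became 26 to 1013 when each mouse was left out in turn. The fall of Nfil3 with Dbp was steeper in the inbreds, and in F1s alone the slope was -0.12 (adjusted p = 0.324). With number series and sex as covariate the difference between F1s and inbreds did not pass (0.43, adjusted p = 0.288). Its call was also lost without CC019 male 3, at 0.43 (adjusted p = 0.0813). In the same mouse the list of glucocorticoid response genes summed to 6120 CPM, against at most 2321 CPM in the other CC019, and that of immediate early genes to 523 CPM, against at most 290 CPM. Of these lists and the liver clock outputs Zbtb16 (1.21), Junb (0.76), Zfp36 (0.655) and Lpin1 (1) were called for the same difference of slopes.

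Correlations with Dbp were computed on log2(CPM + 0.5) for the 28 members and all other genes after centring on the group means, with permutation p-values. Of the members 12 passed after Benjamini-Hochberg adjustment over 13184 genes, 9 with a positive and 3 with a negative r, against 2.53% of all genes, and after centring on number series and sex 0 members passed. Since the mice fall into sets by series and sex, the first count mixes the sets and the second has few mice per set. The first count was 6 without CC019 male 3 and CC037 female 1, the mice farthest from the median of Dbp. The CC037 x CC019 F1s are of 1 number series, and their sexes overlapped in Dbp. In these F1s Tef had a Pearson r of 0.934 (exact permutation p = 0.00414, adjusted 0.828, n = 8) and a Spearman rho of 0.881 (exact permutation p = 0.00724, adjusted 0.724). Without the 2 mice farthest from the median of Dbp that r was 0.834. There Nr1d2 had an r of 0.872 (exact permutation p = 0.00303, adjusted 0.828, n = 8) and a rho of 0.786 (exact permutation p = 0.0279, adjusted 0.745), and Arntl an r of -0.331 (exact permutation p = 0.429, adjusted 0.838, n = 8) and a rho of -0.357 (exact permutation p = 0.389, adjusted 0.853). None of these passed the adjustment over all genes in 8 mice. Without the same 2 mice the r of Nr1d2 was 0.706 and that of Arntl -0.288. In the 9 CC037 inbreds, of 3 number series, Tef (r = 0.98) and Nr1d2 (r = 0.97) passed (exact permutation, adjusted p = 0.0495 for both). Without the 2 CC037 mice farthest from the median of Dbp these r were 0.90 and 0.85. In CC019 and in CC019 x CC037 F1s, with 6 mice each, 0 genes passed by r.

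Outside the members, the genes most like Dbp by this measure over 29 mice were Slc2a5, which encodes the fructose transporter, Madd, A930036K24Rik, Narf and Cebpa, a transcription factor of hepatocytes. Their r after centring on group means ran from 0.904 for Slc2a5 (rho 0.921) to 0.819 for Cebpa (rho 0.719), and from 0.765 to 0.496 in the same 2 genes after centring on number series and sex, where none of the 5 passed. The genes least like it were Cdkn1a, an inhibitor of the cell cycle, with an r of -0.837 (rho -0.765), and Leprotl1, Hspb1, a small heat shock protein, St5 and Pnrc1. Centred on number series and sex, their r lay between -0.732 for Cdkn1a and -0.328 for Hspb1. The permutation p of these 10 genes over group-centred values were between 1e-05, the smallest that 100000 permutations can give, and 7e-05, and the adjusted values between 0.00455 and 0.0112.

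**Figure D2:**
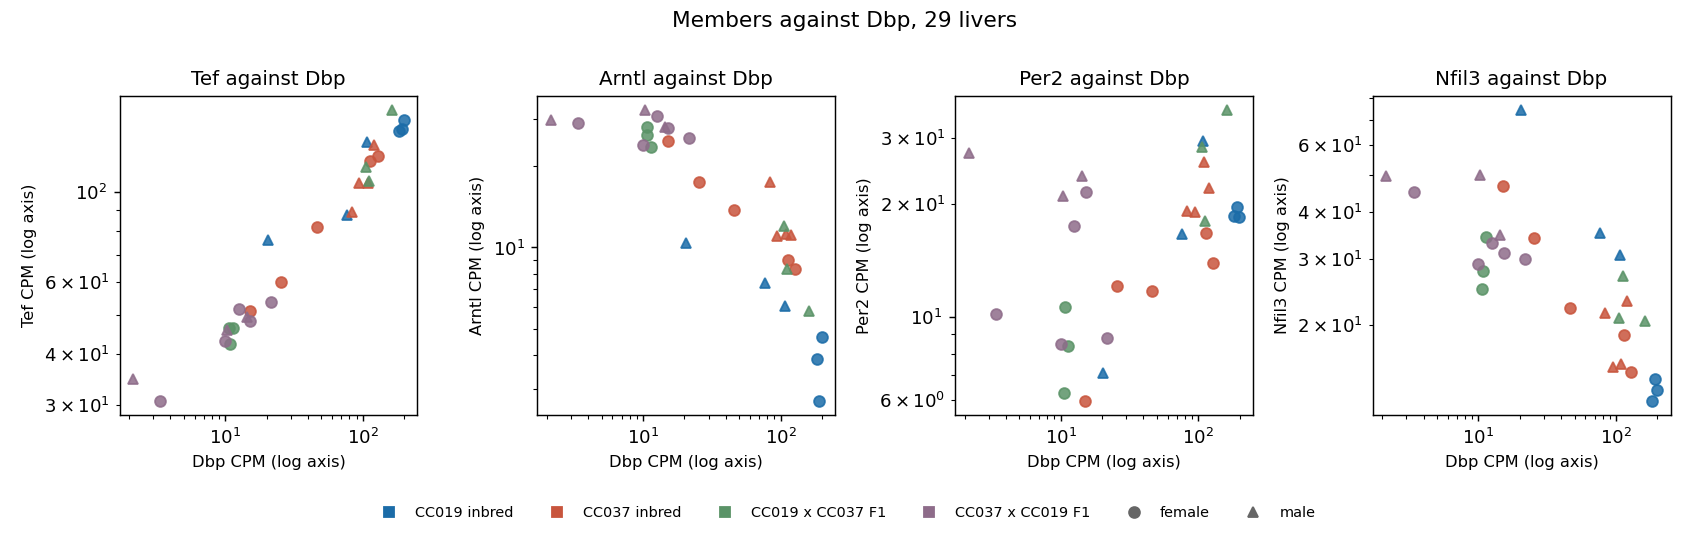
CPM of Tef, Arntl, Per2 and Nfil3 against CPM of Dbp in 29 livers, both axes on a log scale, with colours for the 4 groups, circles for females and triangles for males. Tef rises with Dbp over the whole range and Arntl falls with Dbp. Per2 is at 21 to 27.3 CPM in 3 CC037 x CC019 males and at 21.55 CPM in female 3 of that cross, all of low Dbp.

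Between the inbred strains, 6 of 29 members were called (20.7%), against 23.9% of all 13185 genes. Lower in CC019 than in CC037 were Npas2, by a log2 fold change of -2.01 ± 0.41 (adjusted p = 0.00202), Arntl, by -1.13 ± 0.32 (adjusted p = 0.0173), and Cry1, by -0.73 ± 0.26 (adjusted p = 0.0470). Higher in CC019 were Bhlhe41, by 2.03 ± 0.43 (adjusted p = 0.00288), Ciart, by 2.02 ± 0.46 (adjusted p = 0.00461), and Usp2, a deubiquitinase with rhythmic transcripts in liver, by 1.68 ± 0.26 (adjusted p = 0.000198). Usp2 was between 13.4 and 28.7 CPM in the 6 CC019 and between 3.99 and 11.7 CPM in the 9 CC037 inbreds, with no overlap. Bhlhe41 was between 5.70 and 17.6 CPM in CC019 and between 0.752 and 6.71 CPM in CC037. Dbp itself was not called, at 0.68 ± 0.47 (adjusted p = 0.312), and was 1.5 in females alone and -0.45 in males alone (adjusted p = 0.131 and 0.424). With Dbp as covariate the 6 differences remained called, with Arntl at -0.92 and Usp2 at 1.67. Arntl was not called in males alone (-0.52, adjusted p = 0.123), and 12 of 15 fits that each left out 1 inbred lost the call of Cry1, with adjusted p from 0.0506 to 0.0938. With the CC019 females and the CC037 mice of the last 2 series alone, whose Dbp was between 83.5 and 199 CPM, 12 members were called. These series were picked by their measured Dbp, a member itself, so that count describes the picked mice and is no test. These CC037 mice were mostly males, so strain and sex are also mixed in it.

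Against the 14 F1s, 12 members were called in CC019 (41.4%), beside 22.8% of all genes, and 7 in CC037 (24.1%), beside 19.3%. The same F1s serve in both comparisons, so they are not independent. Lower in CC019 were Npas2, by a log2 fold change of -3.07 ± 0.51 (adjusted p = 0.000229), Arntl by -1.86, Rora by -0.29, Cry1 by -1.20 and Lonrf3 by -1.35. Higher were Ciart by 2.8 ± 0.59 (adjusted p = 0.00193), Usp2 by 2.45, Bhlhe41 by 2.36, Tef by 1.05, Klf10, a transcription factor of liver metabolism, by 0.90, Por by 0.81 and Nr1d2 by 0.67. In CC037, Arntl was lower by -0.73 ± 0.25 (adjusted p = 0.0428), Rora by -0.31 and Lonrf3 by -0.89, and Bhlhe40 was higher by 0.78 ± 0.19 (adjusted p = 0.00563), Nr1d1 by 0.50, Nr1d2 by 0.49 and Nampt, the rate-limiting enzyme of NAD salvage, by 0.40. In fits without 1 mouse each, the call of Por in CC019 was lost in 11 of 20 (adjusted p from 0.0506 to 0.0962) and that of Klf10 in 1. In CC037 the call of Arntl was lost in 17 of 23 (adjusted p from 0.0516 to 0.0829), that of Nr1d2 in 11 and that of Nr1d1 in 5. Rora and Nampt kept their calls in CC037 with Dbp as covariate, at -0.30 and 0.43. With Dbp as covariate 4 members were called in CC019 (Arntl, Npas2, Ciart and Usp2) and 2 in CC037, where Arntl was then at 0.07 (adjusted p = 0.803). Against the CC019 x CC037 F1s alone 1 was called in CC019 and 2 in CC037, and against the CC037 x CC019 F1s alone 20 in CC037. The count in CC037 was 17 without CC019 x CC037 male 2, the F1 with the highest Dbp, and 4 without CC037 male 4, CC037 female 5, CC037 x CC019 male 2 or CC037 x CC019 female 5. Cross type, batch and the set of mice cannot be told apart here.

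Between the reciprocal F1s, which share an autosomal genotype and a batch, 1 of 29 members was called (3.45%), against 0.478% of all 13184 genes. Usp2 was higher in CC019 x CC037 F1s by a log2 fold change of 2.20 ± 0.37 (adjusted p = 0.0326), with 2.24 to 18.5 CPM against 1.23 to 2.12 CPM, so the crosses did not overlap. Its call was lost in 8 of 14 fits that each left out 1 F1, with a log2 fold change between 2.15 and 2.33. Dbp differed by 2.62 ± 0.70 (adjusted p = 0.102) and Per1 by 2.31 ± 0.55 (adjusted p = 0.0758), and neither was called. Dbp differed by 3.79 in males alone (adjusted p = 0.0481) and by -0.29 in females alone (adjusted p = 0.7), which is the sexes' split within CC019 x CC037 F1s seen in the levels. In males alone 8 members were called, among them Arntl at -1.80 (adjusted p = 0.0242), beside 133 of all genes. DESeq2 called 7 members over both sexes, beside 540 of all genes, and edgeR with sex as covariate 4, beside 595. The reported fit called 63 of all genes, so the member counts rose where the counts of all genes rose.

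Between the sexes over all 29 mice, 5 members were called (17.2%), against 31.3% of all genes. Lower in females were Ciart by a log2 fold change of -1.58 ± 0.55 (adjusted p = 0.0265), Noct, a phosphatase of NADPH with rhythmic transcripts, by -1.08 ± 0.33 (adjusted p = 0.0133), and Per2 by -0.83 ± 0.19 (adjusted p = 0.00149). Higher in females were Por by 0.95 ± 0.19 (adjusted p = 0.000294) and Timeless by 0.45 ± 0.14 (adjusted p = 0.0149). Per2 was at 13.9 and 16.8 CPM in the 2 females and at 22.0 CPM in the male of the last CC037 series, and was lower in females in CC019 x CC037 F1s, from 6.29 to 10.6 CPM against 18.0 to 35.6 CPM. In CC019 the females, from 18.5 to 19.6 CPM, lay within the range of the males, 7.11 to 29.4 CPM. With the groups as covariate 11 members were called. In inbreds alone 2 members were called, beside 2589 of all 13185 genes, and in F1s alone 9, beside 2175 of 13184. Dbp was at -0.36 over all mice (adjusted p = 0.68), 0.31 in inbreds (adjusted p = 0.702) and -2.56 in F1s (adjusted p = 0.0228). Without CC019 male 2 or CC019 male 3 the call of Ciart was lost, at -1.18 (adjusted p = 0.0893) and -1.36 (adjusted p = 0.059).

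Within an F1 liver both alleles share the hour, the sex and the sampling, so their ratio compares the 2 alleles within the same mouse. The allelic counts allow this for genes whose counts in each inbred were at least 90% from its own strain, which held for 12 of 29 members and 4120 of all expressed genes. The others, Dbp, Tef, Nfil3, Cry1, Nr1d2, Ciart, Rora, Bhlhe40, Wee1, Usp2, Nampt, Tspan4, Csnk1e, Timeless, Klf10, Lonrf3 and Por, did not reach that share and were not analysed by allele. Of the 12, 3 were called (Per2, Bhlhe41 and Nr1d1), against 47.2% of all analyzable genes. Per2 had a CC019 share of 56.7 to 71.1% with a median of 65.7% in the 14 F1s, from 180 to 1504 allelic counts per mouse. The CC019 allele was above 50% in 14 of 14 F1s, with a mean of 65.7% ± 3.89 (SD, n = 6) in CC019 x CC037 and of 62.5% ± 4.73 (SD, n = 8) in CC037 x CC019 F1s. In both crosses the share was lower in males, with no overlap between the sexes. It was 60.0 to 65.7% in males and 66.9 to 71.1% in females of CC019 x CC037. In CC037 x CC019 F1s it was 56.7 to 57.8% in males and 61.4 to 68.0% in females. The difference of this share by sex was not tested. Its allelic log2 ratio was 0.82 ± 0.07 (adjusted p = 1.17e-07). Per2 was thus expressed more from the CC019 allele in each F1, whatever its Dbp, while its totals in the 2 inbred strains differed by 0.22 (adjusted p = 0.617). The difference between the strain and the allelic value was not tested.

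Bhlhe41 had a CC019 share of 25.5 to 100% with a median of 69.7%, from 12 to 378 allelic counts per mouse, and was above 50% in 12 of 14 F1s. Its allelic log2 ratio was 1.33 ± 0.41 (adjusted p = 0.0130), in the direction of the strain difference, and it did not pass in either cross alone (1.67 with adjusted p = 0.0538 in CC019 x CC037, and adjusted p = 0.183 in CC037 x CC019 F1s). Nr1d1 was at 46.1 to 51.2%, with a log2 ratio of -0.07 ± 0.03 (adjusted p = 0.0393), lost its call in 8 of 14 fits without 1 F1 each (adjusted p from 0.061 to 0.0799), and turned to 0.05 (adjusted p = 0.108) with the allelic totals as library sizes. That scaling moved the median log2 ratio of all genes from 0.01 to 0.13 and the share of calls toward CC019 from 50.8 to 73.3%, and a ratio as small as that of Nr1d1 lies within this shift. Npas2 and Arntl, which were lower in CC019 than in CC037, had allelic log2 ratios of -0.02 ± 0.09 (adjusted p = 0.869) and -0.15 ± 0.09 (adjusted p = 0.164), with CC019 shares of 39.8 to 64.3% and 41.2 to 58.8%, and the value of Npas2 turned to 0.10 with the allelic totals. In CC037 x CC019 F1s alone Arntl was at -0.24 (adjusted p = 0.00851), below 50% in 8 of 8 mice. Clock was at 0.12 (adjusted p = 0.0970) and at 0.24 (adjusted p = 0.00261) with the allelic totals, Hlf, Cry2 and Csnk1d between -0.09 and 0.01, and Per1, Noct and Per3 at 0.12, 0.21 and 0.24, none of which was called.

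The allelic ratio of no member differed by cross, with 0 of 12 called by edgeR against 0.17% of all analyzable genes (7 genes, with 270 at an unadjusted p under 0.05). The fit of the ratio on Dbp among F1s called 0 of 12 members and 0% of all genes, with 276 of 4120 at an unadjusted p under 0.05, and no other tool was run on allelic counts. Its value for Per2 was -0.05 ± 0.05 on the log2 scale per log2 unit of Dbp. For Per1 it was -0.23 ± 0.11 and was not called either (edgeR, adjusted p = 0.711). With 14 mice and an adjustment over 4120 genes, even a slope well above its standard error could be missed.

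**Figure D3:**
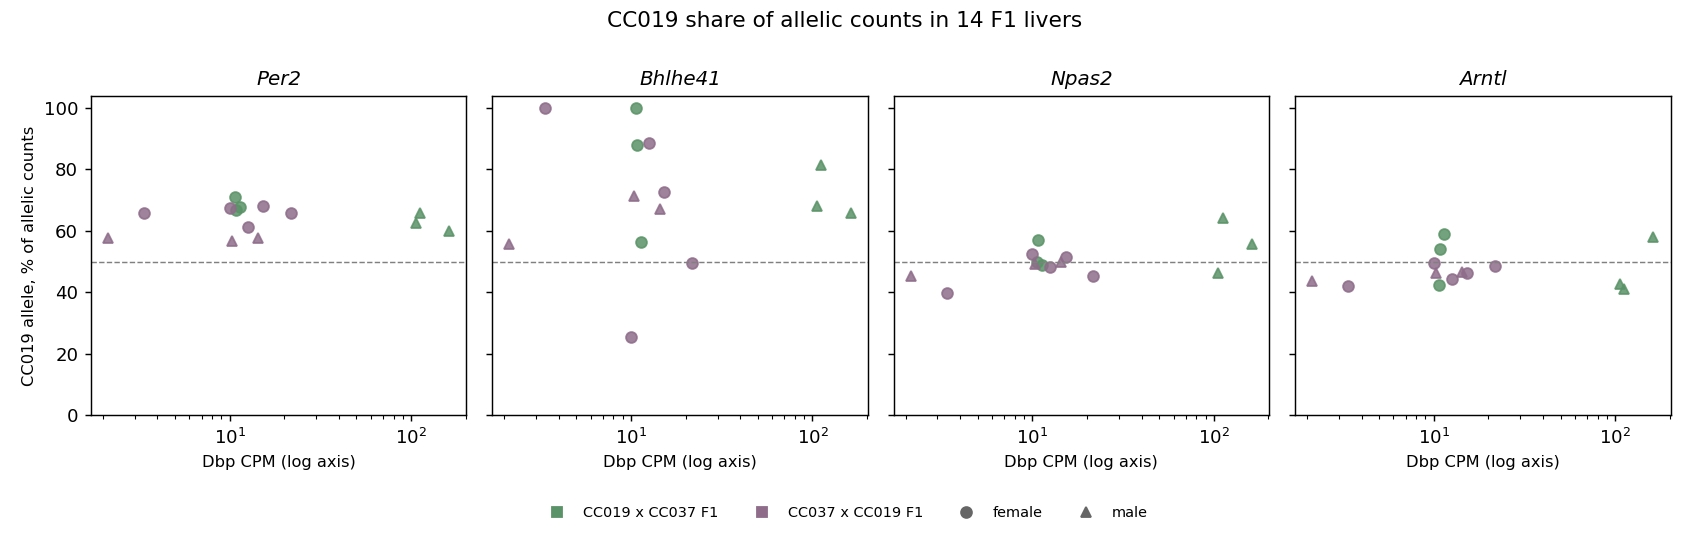
Share of allelic counts on the CC019 allele, in percent, against Dbp CPM on a log axis for Per2, Bhlhe41, Npas2 and Arntl in 14 F1 livers, with colours for the crosses, circles for females, triangles for males and a dashed line at 50%. Per2 lies above the line in all 14, from 56.7 to 71.1%, while Npas2 and Arntl lie on both sides of it.

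Because members moved together with Dbp, the sequences at their starts were searched for the motifs of the loop. RefSeq windows of 300 bases (from 250 before to 50 after a gene's start, GRCm38.p6) were held for 24 of the 29 members, 33 windows in all, with none for Per2, Bhlhe40, Wee1, Csnk1d and Klf10. Letters were matched on both strands. The E-box CACGTG was in 7.15% of all 32817 windows and in 8 of the 33 member windows. These were of 7 members, Tef, Per1, Cry1, Ciart, Bhlhe41, Tspan4 and Lonrf3 (1 of 2 windows for Per1 and for Tspan4). The D-box TTATGTAA or TTACGTAA was in 1.05% of all windows and in 2 of the 33, those of Per3 and Timeless. The element TAGGTCA, bound by RORA and the NR1D proteins, was in 2.61% of all windows. It was in 2 of the 33, that of Nfil3 and 1 of 2 of Arntl. The 4 windows below, picked after the values were seen among windows that hold a motif, are of Per3 and Arntl, called with Dbp in opposite directions, and of Ciart and Bhlhe41, called higher in CC019, with the motifs in capitals and each strand read in the direction of its gene. A match is a description of letters, and binding was not measured.
Arntl, chr7:113207261-113207560, plus strand: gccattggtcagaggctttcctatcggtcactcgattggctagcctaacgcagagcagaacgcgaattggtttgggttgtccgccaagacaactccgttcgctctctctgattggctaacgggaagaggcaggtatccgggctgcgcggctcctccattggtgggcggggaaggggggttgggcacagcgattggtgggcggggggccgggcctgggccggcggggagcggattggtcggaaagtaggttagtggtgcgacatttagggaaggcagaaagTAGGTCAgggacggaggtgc
Per3, chr4:151044616-151044915, minus strand: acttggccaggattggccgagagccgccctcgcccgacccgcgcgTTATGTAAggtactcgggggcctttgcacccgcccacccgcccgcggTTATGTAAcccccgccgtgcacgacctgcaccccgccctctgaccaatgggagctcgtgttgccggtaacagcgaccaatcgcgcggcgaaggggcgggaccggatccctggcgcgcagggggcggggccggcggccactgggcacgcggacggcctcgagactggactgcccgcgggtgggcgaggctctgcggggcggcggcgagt
Ciart, chr3:95882179-95882478, minus strand: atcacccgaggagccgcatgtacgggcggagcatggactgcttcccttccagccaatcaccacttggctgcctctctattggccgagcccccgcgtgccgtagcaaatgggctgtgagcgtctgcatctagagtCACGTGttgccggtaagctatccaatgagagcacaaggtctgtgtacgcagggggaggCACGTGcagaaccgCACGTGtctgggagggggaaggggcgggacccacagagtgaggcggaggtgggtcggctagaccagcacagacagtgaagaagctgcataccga
Bhlhe41, chr6:145865371-145865670, minus strand: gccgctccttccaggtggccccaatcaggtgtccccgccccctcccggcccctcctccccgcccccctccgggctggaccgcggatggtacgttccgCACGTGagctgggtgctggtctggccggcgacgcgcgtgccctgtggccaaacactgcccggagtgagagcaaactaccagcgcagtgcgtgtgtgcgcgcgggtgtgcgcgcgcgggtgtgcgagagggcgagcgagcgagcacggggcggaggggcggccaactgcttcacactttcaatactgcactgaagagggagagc
The window of Ciart holds the E-box 3 times and that of Per3 the D-box 2 times. In those of Arntl and Bhlhe41 the motif is found at 1 place each.

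Other genes around the clock were read beside the members. Of 18 other clock pathway genes, such as the ligases and kinases that turn over PER and CRY proteins, 17 were tested, since Rorb was under 0.5 CPM in all mice. Sfpq fell with Dbp, at -0.12 ± 0.02 (adjusted p = 0.0045), and between the strains 2 were called, Btrc at 0.24 and Prkaa1 at -0.19. The median size of the slope on Dbp, its sign set aside, was 0.02 for these genes and 0.21 for the members, a difference that was not tested. Of 15 liver clock outputs tested 2 rose with Dbp, Gys2, the glycogen synthase of liver, by 0.15 and Slc2a2, its glucose transporter, by 0.11. Between the strains 5 of 15 were called, with Alas1, the first enzyme of haem synthesis, higher in CC019 by 1.14 and Rgs16 lower by -1.51, and between the sexes 6, with Elovl3 lower in females by -6.41 and Cyp7a1, the rate-limiting enzyme of bile acid synthesis, higher by 1.92.

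Feeding sets the phase of the liver clock, so genes of fed and fasted liver were read beside it. Of 11 feeding genes 10 were lower in CC019 than in CC037, with a median log2 fold change of -1.91, among them Fasn by -2.18 ± 0.34 (adjusted p = 0.000239) and Scd1 by -3.35, and 9 were lower in CC019 than in F1s. Their summed level was between 1161 and 5338 CPM in CC019 and between 10440 and 29390 CPM in CC037, with no overlap. With Dbp 1 of 11 was called, Srebf1 by 0.21, and 0 of the 11 fasting genes, of which 4 differed between the strains, with Angptl4 and Cyp4a14 higher and Pdk4 and G6pc lower in CC019. The slopes of the feeding genes on Dbp had a median of 0.175, with Fasn at 0.31 ± 0.10 (adjusted p = 0.0844) and Scd1 at 0.35 ± 0.14 (adjusted p = 0.159), so a missing call does not show that they stayed level. The part of feeding in the strain differences of members was not tested.

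Of 8 temperature-linked genes, 2 were called with Dbp, Cirbp rising by 0.20 and Hspa8 falling by -0.13, and 1 between the strains, Hspa1a, higher in CC019 by 4.41. Of 8 genes that respond to glucocorticoids, 2 fell with Dbp, Lcn2 by -0.92 and Zbtb16 by -0.57, and 0 differed between the strains. Of 9 immediate early genes tested, 0 were called with Dbp, and Jun, Junb and Ier2 were higher in CC019 than in CC037, by 0.71, 0.97 and 0.52. Against the F1s, 5 of 8 temperature-linked genes were called in CC019, 3 higher and 2 lower, and 2 in CC037, both lower. Of the glucocorticoid genes 3 were higher in CC019, and in CC037 1 was higher and 1 lower.

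Markers of other cells were read in the same mice, where fewer cells of a type and less RNA per cell cannot be told apart. With sex, in which 3 members were lower and 2 higher in females, 8 of 8 Kupffer cell markers were higher in females with a median of 1.39, as were 7 of 8 lymphocyte, 4 of 8 stellate and 3 of 8 sinusoidal endothelial markers. The Kupffer list summed to 75.5 to 865 CPM, with Cd5l the most abundant at a mean of 84.2 CPM. Of 9 hepatocyte markers 4 were called with sex, 1 higher and 3 lower, of 6 cholangiocyte markers 1, of 4 erythroid markers 1, Alas2, lower in females by -3.25, and of the white fat list Car3, lower by -1.03. The part of cell content in the sex differences of members was not tested. With Dbp 0 of the Kupffer, endothelial, cholangiocyte, erythroid and lymphocyte markers were called, and 1 hepatocyte marker (Hnf4a, -0.09) and 1 stellate marker (Des, -0.91) fell. The stellate list had its highest sum, 1145 CPM, in CC019 x CC037 female 1, where skeletal muscle genes summed to 2301 CPM. Between the strains 2 of 9 hepatocyte markers were higher in CC019 and 3 of 8 stellate markers lower, of 6 cholangiocyte markers Epcam was higher by 1.07 and Sox9 lower by -1.17, and Ighm was the 1 lymphocyte marker called, lower by -3.62. Against the F1s, Marco was the 1 of 8 Kupffer cell markers called, higher in CC019 by 3.44 and in CC037 by 3.88. Of 8 sinusoidal endothelial markers 2 were lower in CC019 and 0 were called in CC037. Ighm was lower in CC019 by -1.90 and higher in CC037 by 1.71. None of the listed markers was at 0 in all mice.

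Markers of pancreas, muscle and white fat were high in a few livers. The exocrine pancreas list summed to 9.67 to 11590 CPM in CC019 and to 6.50 to 62.2 CPM in the other groups, with 11590 CPM in CC019 female 2 and 855 CPM in CC019 male 2, and Cela1, the 1 gene of the list past the filter, was higher in CC019 than in CC037 by 3.37. The skeletal muscle list reached 995 CPM in CC037 female 1 and 2301 CPM in CC019 x CC037 female 1, against at most 1.66 CPM in CC019. Its tested member Mylpf fell with Dbp by -1.31 and was higher in females by 3.77. The white fat list without Car3 summed to 209 CPM in CC019 x CC037 male 3, 41.8 CPM in CC019 female 2, 14.4 CPM in CC019 x CC037 female 1 and 12.2 CPM in CC019 male 2, and to at most 1.47 CPM in the other mice. Without CC019 female 2, CC019 male 2, CC037 female 1, CC019 x CC037 female 1 or CC019 x CC037 male 3, each left out in turn, the number of members called with Dbp was 14, 14, 12, 12 and 14, so the count does not rest on any of them alone.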

How the data were processed

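Liver RNA of 30 mice at 4 months was measured by strand-specific sequencing of polyadenylated RNA. The authors quantified reads with Salmon 1.9.0 against a transcriptome of both strains built on GENCODE vM21 and GRCm38, and deposited expected counts per allele and gene. The deposited TPM values of the authors come from the same quantification and were summed to genes here. Of 42880 genes 42455 were matched to the annotation.

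Counts of both alleles were summed and rounded. Genes reaching 0.5 CPM in most of the 29 mice were tested with edgeR 4.0.16 in R 4.3.3 (TMM, quasi-likelihood, two-sided, Benjamini-Hochberg over all genes tested, threshold 0.05), with limma 3.58.1 beneath it. Comparisons were made between the strains, of each strain with the F1s, between the reciprocal F1s and between the sexes, without covariates, and as a slope on log2 CPM of Dbp with the 4 groups as covariate, with the difference of that slope between F1s and inbreds. Allelic counts were fitted in 14 F1s with the mouse as block, for genes with at least 90% own-strain counts in every inbred, over both crosses, by cross and on Dbp. Correlations with Dbp used log2(CPM + 0.5) and 100000 permutations, or all arrangements within a group. The tests were also tested on simulated data. Allelic counts in an F1 were as low as 12 for Bhlhe41 and 18 for Npas2.

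Alternatives were DESeq2 1.42.0, its size factors in edgeR, no filter or 1 CPM, sex, the groups, Dbp or a replicate block as covariate, Arntl (sign turned) or Nr1d1 as reference, each cross alone, inbreds or F1s alone, mouse-number series of high Dbp alone, 80% and 95% own-strain counts, allelic totals as library sizes, all 30 mice, each mouse left out in turn, pseudocounts of 0.1 and 1, and no 2 mice farthest from the median of Dbp. Chosen after seeing the data were number series and sex as covariate or for centring, and females or males alone. The number series of high Dbp were picked by the measured level of Dbp.

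Named outside the members are genes of the lists and the 10 genes at the ends, 5 at each, of the group-centred correlation with Dbp. The lists are other clock pathway, liver clock output, fasting, feeding, temperature, glucocorticoid and immediate early genes, and markers of hepatocytes, Kupffer, sinusoidal endothelial and stellate cells, cholangiocytes, erythroid cells, white fat, exocrine pancreas, skeletal muscle and lymphocytes. Members and lists were chosen with earlier results of these data known. Hba-a1, Serpina1c and Cyp2a5 are not in the files.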

Additional observations from a re-analysis of the deposited data

Results flagged for a closer look

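Single mice lay far from the others of their group in 9 of 116 sets of a member and a group, where chance gives about 1 in 20. CC019 x CC037 male 2 was the highest of 6 F1s for Hlf at 69.6 CPM (next 46.7), Ciart at 5.89 CPM (next 2.21), Noct at 23.2 CPM (next 9.21) and Usp2 at 18.5 CPM (next 8.25). CC019 male 3 was the highest of 6 CC019 inbreds for Nfil3 at 74.2 CPM (next 35.2), and CC019 male 1 the lowest for Cry2 at 25.3 CPM (next 49.0). Among 9 CC037 inbreds, CC037 male 4 was the highest for Nr1d1 at 206 CPM (next 186) and CC037 female 1 for Lonrf3 at 3.43 CPM (next 2.50). CC037 x CC019 male 2 was the highest of 8 F1s for Bhlhe41 at 3.71 CPM (next 1.53).

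The slope of Nfil3 on Dbp differed between F1s and inbreds by 0.51 on the log2 scale (adjusted p = 0.00872 by edgeR), and by 0.43 (adjusted p = 0.0813) without CC019 male 3, which also had the highest sum of glucocorticoid response genes, 6120 CPM. The causes were not tested.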

How the results depend on the processing

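Counts of members called kept within 1.5 times their reported value under the alternatives not named here. Between the strains 6 became 12 with the CC019 females and the last 2 CC037 number series alone. That setting was picked by measured Dbp and mixes strain and sex. In males alone Dbp turned to -0.45. Of 12 members called in CC019 against F1s, the count was 4 with Dbp as covariate and 1 against CC019 x CC037 F1s alone. Of 7 in CC037 against F1s, it was 2 with Dbp as covariate, where Arntl turned to 0.07, 2 against CC019 x CC037 F1s alone and 20 against CC037 x CC019 F1s alone. Between the crosses 1 became 7 with DESeq2, 4 with sex as covariate, 8 in males alone (chosen after seeing the data), and 0 in edgeR without a filter, with a replicate block and with Dbp as covariate, where all genes called were 2, 0 and 290. At an unadjusted p under 0.05 the reported fit had 2332 genes. Dbp turned to -0.29 in females alone. Between the sexes 5 became 11 with the groups, 10 with a replicate block and 12 with Dbp as covariate. It became 2 in inbreds and 9 in F1s alone, where all genes called were 2589 and 2175. Between the sexes Dbp turned to 0.31 in inbreds, and Arntl to -0.17 with Dbp as covariate and -0.08 in inbreds.

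For the slope on Dbp 14 became 4 with Nr1d1 as reference, 7 in inbreds, 5 in F1s and 3 with number series and sex as covariate (chosen after seeing the data). For its difference between F1s and inbreds 1 became 3 with DESeq2, 2 with Arntl as reference, and 0 in edgeR with Nr1d1 as reference and with number series and sex, where 2338 genes had an unadjusted p under 0.05 in the reported fit. For correlations 12 became 6 without the 2 mice farthest from the median of Dbp, CC019 male 3 and CC037 female 1, and 0 by permutation when centred on number series and sex. The allelic value of Npas2 turned to 0.10 and that of Nr1d1 to 0.05 with allelic totals, and Npas2 to 0.17 in CC019 x CC037 F1s alone. The cause was not tested for these changes, beside the fewer mice in fits of 1 sex, cross or type.

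Leaving out each mouse in turn gave 5 to 7 members between the strains, 11 to 16 in CC019 and 4 to 17 in CC037 against F1s, 0 to 2 between the crosses, 4 to 6 between the sexes, 11 to 15 for the slope and 2 to 4 for the allelic ratio. For the slope difference it gave 0 to 3, with 0 without CC019 male 3, 3 without CC037 female 1 and 2 without CC019 x CC037 female 1. The allelic value of Npas2 ran from -0.06 to 0.03. The allelic ratio by cross and its slope on Dbp gave 0 throughout in edgeR, with 270 and 276 genes at an unadjusted p under 0.05 in the reported fits.

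All genes called for the slope on Dbp, 403 as reported, were 725 with DESeq2, 1244 with sex as covariate, 17 with Nr1d1 as reference and 4 with number series and sex. Without 1 mouse they were 178 to 657, and for the slope difference, 79 as reported, 26 to 1013. Between the crosses, 63 as reported, they were 540 with DESeq2, 595 with sex as covariate and 133 in males alone, and 0 to 334 without 1 mouse. DESeq2 and its size factors moved no median of all genes by 0.1 or more. The number of mice per set of number series and sex, 1 to 5, limits the fits on those sets.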

Other observations

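The CC019 x CC037 female replicate 5, which enters no comparison above, had 25.8 CPM of Dbp, 22.0 CPM of Arntl, 128 CPM of Nr1d1 and 11.1 CPM of Per2. Over 66 genes of the X chromosome 99.5% of its allelic counts were maternal, against 58.6 to 93.4% in the other 3 females of its cross, and Xist, which is transcribed from the inactive X, was at 0.131 CPM, against 463 to 539 CPM. Elovl3, which was lower in females, was at 1.93 CPM in this mouse, at 1.08 to 3.60 CPM in those females and at 117 to 252 CPM in the males of the cross. The files hold no counts for 4 genes of the Y chromosome that were looked up. With that mouse added, the log2 fold change of Dbp in CC019 against F1s was 1.93 (adjusted p = 0.0476), against 1.9 (adjusted p = 0.0639) in 29 mice. The hour of collection and the meaning of the mouse numbers are not given for any comparison of levels here, and the batch differs in those of inbreds with F1s. Per2 in F1s is read from both alleles of the same liver.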
